A study of Mus musculus with 4 samples.

Results

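Luminal progenitor (LP) cells of pubertal mouse mammary glands were compared with LP cells of adult glands. An LP cell was taken as a cell with a count of at least 3 of 5 LP markers (Cd14, Lalba, Plb1, Atp6v1b1 and Aldh1a3), of at most 1 of 6 mature luminal (ML) markers and of at most 2 of 7 basal markers. This gave 1055 LP cells among 5428 cell barcodes in puberty, 323 of 2729 in adult estrus and 283 of 2439 in adult diestrus, or 1661 of 10596 in all. Of the 27998 genes listed, 5196 reached 20 counts per 1e6 counts (CPM) in the summed LP counts of at least 1 of the 3 libraries. The genes described here were chosen by their measured values in this comparison, as those at least 2-fold higher, or at least 2-fold lower, in puberty than in estrus and also than in diestrus. There were 132 such genes, 93 higher and 39 lower.

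All cells came from the glands of female FVB/NJ mice, sorted as Lin- CD24+ epithelium and captured on the 10X Chromium droplet platform with counting at the 3′ end of transcripts. The pubertal mice were 5 weeks old and the adult mice 10 weeks old, and the adult glands were staged as estrus or diestrus by vaginal cytology. Each library held the pooled glands of more than 1 mouse, so each stage was 1 library and no value had a replicate check. The stage of the pubertal mice in the ovarian cycle is not given in the sources used here. Stage therefore cannot be told apart from library or pool, no test between stages was possible, and every difference below is a description of 3 libraries. A second table labelled puberty shared 5387 barcodes (99.2%) with the first, with a Pearson correlation of 0.997 between the log totals of shared cells. The labels give 5387 cells for both puberty tables combined, 2729 for estrus and 2439 for diestrus. The second table was treated as a further count of the same cells and used only as a technical check. Of the shared barcodes, 1051 were LP cells by the first table, 890 by the second and 790 by both. The LP label of a cell thus did not always repeat. Other pairs of libraries shared 13 to 24 barcodes.

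The mammary duct has an outer layer of contractile basal (myoepithelial) cells and an inner layer of luminal cells, which are either hormone-sensing ML cells or LP cells. LP cells lack the estrogen receptor for the most part, form colonies in culture and are the source of the alveolar cells that make milk in pregnancy. Even in virgin glands they carry transcripts of milk proteins and of secreted defence proteins. At puberty the ducts grow into the fat pad from terminal end buds, whereas in the adult virgin the tree is complete and turns over with the ovarian cycle.

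The LP sums held 4897995 counts in puberty, 1352551 in estrus and 1513819 in diestrus, with medians of 4147, 3664 and 4414 counts per cell. The label was checked against LP genes that the cell rule did not use. Levels in basal and ML cells are not set beside these genes. Kit, the stem cell factor receptor, was at 46.9 CPM in puberty, 40.2 in estrus and 33.4 in diestrus. It had a count in only 13.6%, 14.2% and 16.6% of LP cells in that order. Elf5, the transcription factor of alveolar fate, was at 329 CPM in puberty, 558 in estrus and 334 in diestrus. Csn3, the kappa casein, had a count in 97.9%, 96.6% and 90.1% of LP cells in puberty, estrus and diestrus, and Lcn2, a siderophore-binding defence protein, in 99.6%, 99.1% and 98.2%. Wfdc18 varied more, with a count in 86.1%, 53.6% and 79.9% in the same order. The 12 immune markers (Ptprc and others) summed to 1.60 CPM in puberty, 3.52 in estrus and 0.618 in diestrus, with 7, 7 and 11 of them at 0 counts, among them Ptprc and Cd3e in all 3 libraries. The 12 stromal markers summed to 20.1 CPM in puberty, 9.16 in estrus and 15.5 in diestrus. The 12 further basal genes summed to 1118 CPM in puberty, 1136 in estrus and 707 in diestrus, mostly Apoe, and the 12 further ML genes to 738 CPM in puberty, 663 in estrus and 731 in diestrus. Krt14, the basal keratin, was at 15.8, 14.8 and 57.5 CPM in that order, so the LP sum of diestrus held the most of it.

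Ratios are log2 ratios of CPM scaled by the trimmed mean of M values (TMM) with 1 CPM added to each value, which understates the change of low genes. All intervals are 95% intervals of the counts and cover counting error only. The 93 higher genes were 1.79% of those measured and the 39 lower genes 0.751%. A short list without a call is thus near the share over all genes. Between the adult libraries, 359 genes were at least 2-fold higher in diestrus than in estrus (6.91%) and 186 lower (3.58%), which need only 1 ratio each. For all 132 genes the exact Poisson interval of the pubertal level lay outside those of both adult levels. The genes were chosen on these same values, so this is no separate evidence of a difference. The intervals also take no account of counts held by few cells. The split depended on the scaling. Without TMM the median gene moved by -0.23 against estrus and -0.25 against diestrus, and 50 genes were higher and 115 lower. All 132 genes kept their direction, but a shift of this size cannot reverse a gene chosen at 2-fold, so this is no check.

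**Figure D1:**
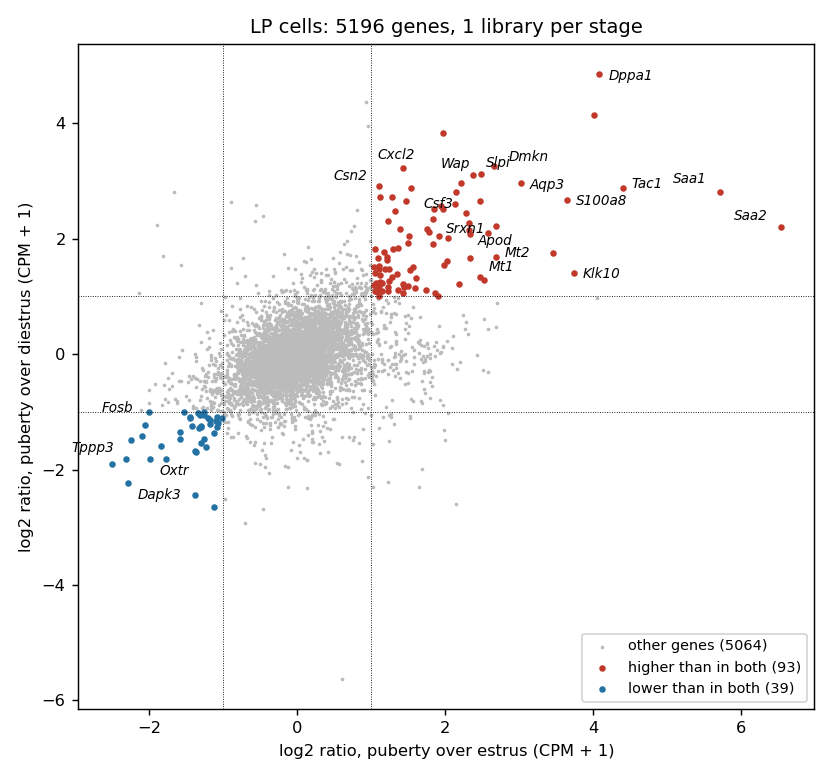
Each point is 1 of 5196 genes in LP cells, with its log2 ratio of puberty over estrus on the x axis and of puberty over diestrus on the y axis. Dotted lines mark 2-fold. The 93 genes higher in puberty than in both adult libraries lie at the upper right and the 39 lower genes at the lower left, and the ratios of higher genes reach further from 0 than those of lower genes.

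At the edge of the selection on the higher side, the smaller of the 2 ratios was 1.001 for Hp and 1.008 for Marveld2 just inside, and 0.9997 for Pmvk and 0.998 for Etnk1 just outside. On the lower side it was -1.002 for Mina inside and -0.994 for Ifngr1 outside. Of the cells, 567 of the 1055 pubertal LP cells had exactly 3 LP markers, and 410 further pubertal cells had 2 and met the other limits.

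The promoters of a few of the genes that were higher are shown first, because the members of a pair or group can be compared in them. The sequences are RefSeq promoter windows of GRCm38.p6 (mm10), from 250 bases before to 50 bases after the transcription start. Saa1 and Saa2 encode acute-phase serum amyloid A proteins and are neighbours on chromosome 7. Their windows are at chr7:46742931-46743230 on the minus strand and chr7:46751583-46751882 on the plus strand, and 287 positions were identical in a global alignment, with 12 substitutions and 2 single-base gaps. Capitals mark the bases that differ.
Saa1: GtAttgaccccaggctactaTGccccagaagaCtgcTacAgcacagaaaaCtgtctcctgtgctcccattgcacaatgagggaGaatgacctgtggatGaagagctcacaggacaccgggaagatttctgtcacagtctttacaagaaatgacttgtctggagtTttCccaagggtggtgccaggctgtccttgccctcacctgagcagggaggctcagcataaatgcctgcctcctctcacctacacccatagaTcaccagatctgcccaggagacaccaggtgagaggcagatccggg
Saa2: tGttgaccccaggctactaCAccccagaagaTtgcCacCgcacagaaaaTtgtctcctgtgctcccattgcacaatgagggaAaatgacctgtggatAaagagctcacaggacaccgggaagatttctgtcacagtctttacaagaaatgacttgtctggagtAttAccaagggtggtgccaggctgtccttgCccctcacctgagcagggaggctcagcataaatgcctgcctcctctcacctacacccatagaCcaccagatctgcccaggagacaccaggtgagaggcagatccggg
Neither window held a match to the AP-1, heat shock, sterol, NF-kB or STAT letters searched (TGANTCA, GAANNTTC, TCACNCCAC, GGANTTTCC and TTCNNNGAA, on both strands).

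The antioxidant genes that were higher include Srxn1, which encodes sulfiredoxin, and the metallothionein genes Mt1 and Mt2, which are neighbours on chromosome 8. Their windows are at chr2:152105274-152105573 (Srxn1), chr8:94172368-94172667 (Mt2) and chr8:94178839-94179138 (Mt1), all on the plus strand. Capitals mark the AP-1 letters TGANTCA, which Srxn1 held 2 times, Mt2 1 time and Mt1 not at all.
Srxn1: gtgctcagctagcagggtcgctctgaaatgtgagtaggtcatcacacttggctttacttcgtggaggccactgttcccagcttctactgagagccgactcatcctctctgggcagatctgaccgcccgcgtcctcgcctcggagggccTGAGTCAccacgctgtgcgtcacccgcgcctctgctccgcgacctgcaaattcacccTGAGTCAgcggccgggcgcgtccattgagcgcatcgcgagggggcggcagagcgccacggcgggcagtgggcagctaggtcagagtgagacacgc
Mt2: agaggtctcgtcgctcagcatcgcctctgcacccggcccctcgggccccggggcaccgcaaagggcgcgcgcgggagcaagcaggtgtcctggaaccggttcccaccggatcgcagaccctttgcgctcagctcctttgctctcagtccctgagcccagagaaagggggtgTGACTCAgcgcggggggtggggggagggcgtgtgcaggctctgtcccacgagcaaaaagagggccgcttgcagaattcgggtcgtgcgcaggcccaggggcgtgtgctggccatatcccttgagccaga
Mt1: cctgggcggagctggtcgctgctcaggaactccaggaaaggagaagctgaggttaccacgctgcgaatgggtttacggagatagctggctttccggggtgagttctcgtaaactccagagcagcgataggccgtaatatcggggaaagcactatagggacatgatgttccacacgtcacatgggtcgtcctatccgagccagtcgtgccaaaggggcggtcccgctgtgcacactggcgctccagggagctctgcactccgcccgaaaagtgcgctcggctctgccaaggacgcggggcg
Of the 93 higher genes 76 had a promoter in the table, and 13 of these (17.1%) held the AP-1 letters. Of the 39 lower genes 31 had one, and 3 (9.68%) held them. Over the promoters of all 27025 genes in the table the share was 8.97%. The NF-kB letters stood in 4 of the 76 (5.26%) and none of the 31, against 1.45% of all. The STAT letters stood in 6 (7.89%) and 2 (6.45%), against 9.55%, and the heat shock letters in 4 (5.26%) and 4 (12.9%), against 9.04%. The sterol letters stood in none and 1 (3.23%), against 1.44%. These are matches of letters and say nothing of binding.

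Of 22 genes of secreted defence proteins, 15 were measured. Of these, 5 were higher than in both adult libraries and none lower, beside 1.79% and 0.751% over all measured genes. The median ratio was 1.31 against estrus and 0.99 against diestrus, whereas over all genes it was -0.0047 and -0.025. A gene was measured if it reached the CPM floor in any library, and Saa1, Saa2 and S100a8 reached it only in puberty. The count of higher genes and the medians therefore rest in part on genes let in by their pubertal level. The smaller of the list medians was 0.53 with a floor of 50 CPM and 0.59 with means over cells. Saa1 was at 88.5 CPM in puberty, 0.705 in estrus and 11.7 in diestrus (387, 1 and 19 counts). Saa2 was at 91.97 CPM in puberty, 0 in estrus and 19.2 in diestrus, with 0 counts in estrus. The pubertal library was thus the highest for both genes. The Saa2 ratio against estrus was at least 43.5-fold, taking 3 counts as the floor of that library, and the Saa1 ratio was 126-fold (22.4 to 4974) from 1 count in estrus. Very few cells carried these counts. A single pubertal cell held 33.1% of the Saa1 counts and 37.8% of the Saa2 counts. With each cell thinned to 2000 counts, Saa1 had a count in 3.03% in puberty, 0.347% in estrus and 1.52% in diestrus of LP cells, and Saa2 in 1.82% in puberty, 0% in estrus and 2.27% in diestrus, where 0 of 288 cells allows a share of cells with a count of up to 1.04% at this depth by the floor of 3 counts (Clopper-Pearson upper bound 1.27%). For Saa2, the share of cells was therefore no higher in puberty than in diestrus. With a stricter LP rule (at least 4 LP markers, no ML marker and at most 1 basal marker) its smaller ratio became -0.52, and without the 10% of LP cells with the most counts it was 0.73.

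S100a8, a subunit of calprotectin, was at 29.1 CPM in puberty, 1.41 in estrus and 3.71 in diestrus, on 127, 2 and 6 counts. Its partner S100a9 had 0 counts in all 3 LP sums. Slpi, an inhibitor of leukocyte proteases, was at 158 CPM in puberty, 27.5 in estrus and 17.3 in diestrus, with ratios of 2.48 against estrus and 3.12 against diestrus. Its share of LP cells after thinning was 11.01% in puberty, 4.86% in estrus and 2.27% in diestrus (unthinned 14.8%, 6.19% and 6.01%). Basal cells carried more of it, at 38.2%, 72.6% and 57.2% of basal cells in the same order, with basal ratios of -0.48 and 0.63, so its direction in LP was not shared by basal cells against estrus. Hp, haptoglobin, was at 1162 CPM in puberty, 310.2 in estrus and 579.9 in diestrus, with 27.2%, 17.4% and 26.9% of thinned LP cells. Wfdc3, of the same whey acidic protein family as Slpi, is on no list and was named after its values were seen. It was at 298 CPM in puberty, 87.4 in estrus and 65.5 in diestrus, and in 28.4%, 10.8% and 13.3% of thinned LP cells against at most 0.238% of thinned basal cells. The 3 most abundant defence genes (Lcn2, Wfdc18 and Ltf) were not past 2-fold against both adult libraries. Lcn2 was at 7197 CPM in puberty, 4971 in estrus and 3444 in diestrus, and Ltf, lactoferrin, at 2214 CPM in puberty, 1957 in estrus and 855 in diestrus. Wfdc18 was at 3838 CPM in puberty, 597 in estrus and 2767 in diestrus, high in both puberty and diestrus and low in estrus. C3, the complement factor, was at 54.5 CPM in puberty, 38.8 in estrus and 96.4 in diestrus.

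Milk genes were higher in puberty than in diestrus more than in estrus. Of 22 genes on the milk list, 16 were measured. Of these, 3 were higher past 2-fold against both (Wap, Cidea and Csn2) and none was lower, beside 1.79% and 0.751% over all measured genes. The median ratio was 0.51 against estrus and 1.002 against diestrus. Wap and Cidea reached the CPM floor only in puberty. The count and the medians therefore rest in part on genes let in by their pubertal level. In diestrus the list was itself below estrus, with a median of -0.90 for diestrus over estrus. Csn2, beta casein, was at 12563 CPM in puberty, 5838 in estrus and 1659 in diestrus, and its ratios were 1.11 against estrus and 2.92 against diestrus. Csn1s2a, at 19136 CPM in puberty, 9858 in estrus and 1235 in diestrus, missed the selection by a ratio of 0.96 against estrus and had the larger ratio of 3.95 against diestrus. The 5 caseins together summed to 46766 CPM in puberty, 27088 in estrus and 8453 in diestrus. The level and the share of cells gave different pictures. Csn2 had a count in 36.4% in puberty, 32.99% in estrus and 40.2% in diestrus of thinned LP cells (unthinned 38.8%, 33.7% and 45.6%), so the share in diestrus was not below that in puberty. The mean over positive cells at that depth was 44.3 in puberty, 25.8 in estrus and 8.22 in diestrus. For Csn1s2a the shares were 41.2%, 40.3% and 34.8% in that order and the means 60.5 in puberty, 36.6 in estrus and 7.49 in diestrus. The medians over positive cells were 19, 9 and 5 counts for Csn2 and 16, 13.5 and 4 for Csn1s2a in the order puberty, estrus and diestrus. In puberty the 5% of LP cells with the most Csn2 held 65.2% of its counts, in estrus 75.96% and in diestrus 44.2%.

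Csn2 was also higher in puberty in the other lineages, at 32.8, 6.46 and 5.50 CPM in basal cells and 52.1, 9.98 and 23.03 CPM in ML cells in the same order. After thinning it had a count in 4.17%, 0.956% and 1.06% of basal cells, at median depths of 2895, 2542 and 3375 counts per basal cell before thinning. Free RNA can give such counts, and its part in the LP levels was not tested. Wap, whey acidic protein, was at 55.4 CPM in puberty, 9.87 in estrus and 5.56 in diestrus, and no thinned basal cell in any library had a count of it. Of its pubertal counts 1 cell held 19.8%, and 3.94%, 1.74% and 0.758% of thinned LP cells had one. Cidea, a protein of lipid droplets, was at 42.6 CPM in puberty, 16.9 in estrus and 5.56 in diestrus. Against these, Plin2, another lipid droplet protein, and Btn1a1, the butyrophilin of the milk fat globule, were highest in estrus, at 685, 1191 and 618 CPM and 310.2, 464 and 179 CPM. Lalba, one of the genes of the cell rule, was at 5634, 4067 and 2576 CPM, and 88.9%, 84.2% and 60.4% of LP cells had a count of it. Without TMM the smaller ratio of Csn2 was 0.87, and that of Cidea was 0.87 after thinning. Since Lalba helped to define an LP cell, the selection was repeated with at least 2 of the other 4 LP markers. It then held 84 higher and 37 lower genes, among them 79 of the 93 and 27 of the 39.

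**Figure D2:**
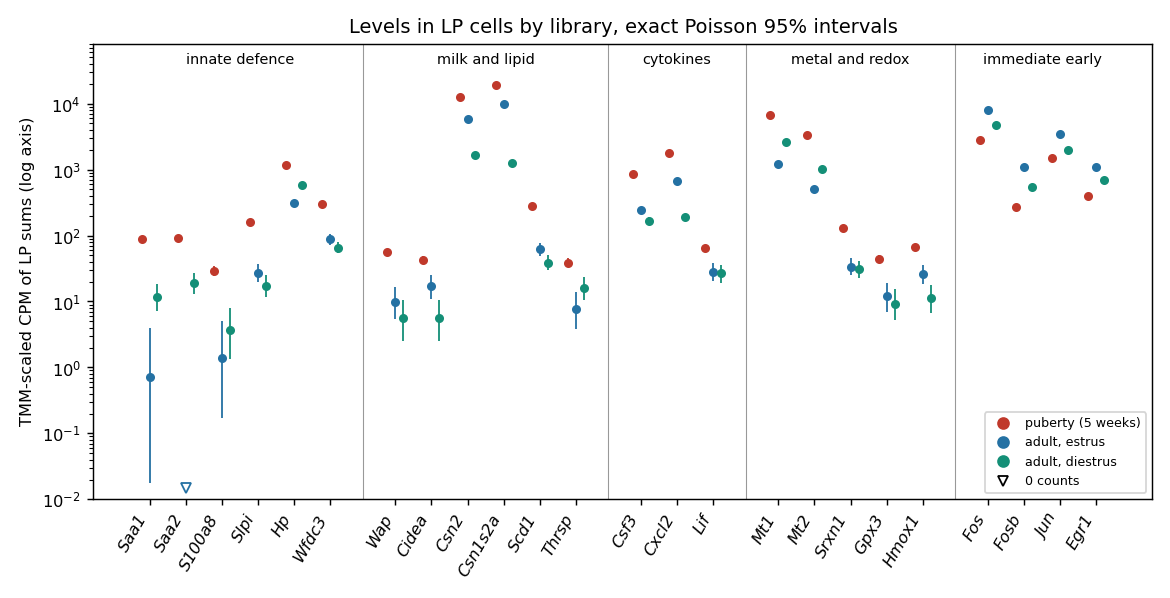
TMM-scaled CPM of LP sums on a log axis, for genes of 5 groups in puberty (red), adult estrus (blue) and adult diestrus (green), 1 library each. Bars are exact Poisson 95% intervals and an open triangle marks 0 counts. The defence, milk and lipid, cytokine and redox genes plotted have the red point highest, and the immediate early genes plotted have it lowest. Other genes of these groups, not plotted, differ: C3 was highest in diestrus, Plin2 and Btn1a1 in estrus and Fosl1 in puberty.

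Genes of lipid synthesis were mixed. Of 19 on the list 10 were measured and 2 were higher (Scd1 and Thrsp), beside 1.79% over all measured genes. Thrsp reached the CPM floor only in puberty, so the count rests in part on its pubertal level. Scd1, the stearoyl-CoA desaturase, was at 278 CPM in puberty, 62.03 in estrus and 38.9 in diestrus, and 25.5%, 12.5% and 6.82% of thinned LP cells had a count of it (unthinned 36.9%, 17.3% and 14.8%). Thrsp, a regulator of lipogenesis, was at 38.7 CPM in puberty, 7.75 in estrus and 16.1 in diestrus, with 19.5% of its pubertal counts in 1 cell and a smaller ratio of 0.97 without TMM. Fasn, the fatty acid synthase, was at 31.6 CPM in puberty, 11.98 in estrus and 24.1 in diestrus, above estrus but near diestrus. The list's median ratio was 0.40 against estrus and 0.22 against diestrus. For cholesterol synthesis 7 of 20 genes were measured and none passed, with a median of 0.03 against estrus and -0.43 against diestrus.

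Of 24 chemokines and cytokines 8 were measured, and 3 were higher than in both adult libraries (Csf3, Cxcl2 and Lif), whereas 2 were below both without passing 2-fold. The shares over all measured genes were 1.79% higher and 0.751% lower. The median ratio was 0.85 against estrus and 0.58 against diestrus. The smaller median was -0.15 when cells under 1000 genes or over 10% mitochondrial counts were left out, and -0.12 with mitochondrial, ribosomal protein and haemoglobin genes left out before scaling. Csf3, the granulocyte colony-stimulating factor, was at 859 CPM in puberty, 241 in estrus and 168 in diestrus. Its share of thinned LP cells was 32.02% in puberty, 16.3% in estrus and 13.3% in diestrus (unthinned 37.3%, 17.03% and 16.6%), with a pubertal interval of 29.1 to 35.03%. Cxcl2, a neutrophil chemokine, was at 1793 CPM in puberty, 665 in estrus and 190.4 in diestrus, and in 36.5%, 18.4% and 11.4% of thinned LP cells. In thinned basal cells the shares were 3.21%, 2.55% and 0.707% for Csf3 and 3.45%, 0.638% and 1.18% for Cxcl2, far below those of LP cells in every library. In puberty 191 of the 317 thinned LP cells with Csf3 also had Cxcl2 (60.3%), against 36.5% of all thinned LP cells. In estrus it was 12 of 47 cells (25.5%), against 18.4% of all, and in diestrus 4 of 35 (11.4%), against 11.4% of all, so these shares differ in part with how common Cxcl2 was. Lif, leukemia inhibitory factor, was at 63.6 CPM in puberty, 28.2 in estrus and 26.6 in diestrus. Its smaller ratio was under 1 in 5 of the 12 alternatives that can change a ratio, and lowest under the stricter LP rule (0.74). Cxcl1, a close relative of Cxcl2, was at 2254 CPM in puberty, 1375 in estrus and 687 in diestrus and did not pass against estrus. Of 13 measured NF-kB feedback genes none was called, and Nfkbia, the NF-kB inhibitor, was at 1356 CPM in puberty, 2567 in estrus and 2369.7 in diestrus.

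Of 21 measured metal-binding and redox genes 5 were higher and none lower, beside 1.79% and 0.751% over all measured genes. Of these 5, Gpx3 reached the CPM floor only in puberty. The list had a median of 0.22 against estrus and 0.34 against diestrus. Without TMM the smaller median was -0.011. Mt1 was at 6671 CPM in puberty, 1208 in estrus and 2634 in diestrus and Mt2 at 3307 CPM in puberty, 515 in estrus and 1028 in diestrus. Both were highest in puberty, and estrus was the lowest library for both. With means over cells the smaller ratio of Mt1 was 0.98. Mt1 was already found in most LP cells, at 94.6%, 78.5% and 84.8% after thinning, and its mean over positive cells was 13.1 in puberty, 3.54 in estrus and 7.47 in diestrus. Srxn1 was at 130.4 CPM in puberty, 33.8 in estrus and 30.9 in diestrus, with ratios of 1.92 against estrus and 2.04 against diestrus and 17.3%, 4.86% and 6.44% of thinned LP cells. Gpx3, a secreted glutathione peroxidase, was at 43.7 CPM in puberty, 11.98 in estrus and 9.27 in diestrus, and Hmox1, heme oxygenase, at 66.6 CPM in puberty, 26.1 in estrus and 11.1 in diestrus. Other redox enzymes on the list, such as the glutathione transferases and peroxiredoxins, did not pass against both libraries. Fth1, the ferritin heavy chain, is on no list and was named after its values were seen. It was at 10332 CPM in puberty, 4919.8 in estrus and 4826 in diestrus, with ratios of 1.07 against estrus and 1.10 against diestrus.

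The 12 genes with the largest smaller ratio that were free of shared 3′ sequence also included Dmkn, Aqp3 and Lgals7. Dmkn, dermokine, was at 175 CPM in puberty, 26.8 in estrus and 17.3 in diestrus, and in 19.7%, 3.82% and 4.17% of thinned LP cells (unthinned 31.8%, 8.36% and 7.42%). Aqp3, a water and glycerol channel, was at 35.7 CPM in puberty, 3.52 in estrus and 3.71 in diestrus, and Lgals7, galectin-7, at 42.6 CPM in puberty, 7.75 in estrus and 8.04 in diestrus. Cldn1, a tight junction claudin, was at 108 CPM in puberty, 26.8 in estrus and 17.9 in diestrus. It was the 1 of 15 measured genes on the keratin and junction list that passed, beside 1.79% higher over all measured genes. Among tight junction genes not on that list, Marveld2 was higher and F11r lower than in both adult libraries. Klk10, a kallikrein protease named after its values were seen, was at 322 CPM in puberty, 23.3 in estrus and 121 in diestrus. Keratins of luminal cells moved less, with Krt8 at 4626, 3678 and 2756 CPM and Krt18 at 9717, 7536 and 4565 CPM.

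Dppa1 had the largest smaller ratio of the genes with their own 3′ end, at 4.08. It lies at chr11:46607772-46629261, minus strand. It had 122, 1 and 0 counts, so the ratio was 39.6-fold against estrus (6.97 to 1577) and at least 15.05-fold against diestrus. After thinning 25 of 990 pubertal LP cells had it, or 2.53% (1.64 to 3.71%), and 12.3% of its counts were in 1 cell. Tac1, the precursor of substance P, had 88, 0 and 3 counts, which is at least 9.52-fold against estrus and 10.9-fold against diestrus (3.60 to 53.6). Smox, spermine oxidase, was at 105 CPM in puberty, 15.5 in estrus and 21.6 in diestrus, and Depdc7 at 79.2 CPM in puberty, 16.2 in estrus and 9.27 in diestrus. Apod, apolipoprotein D, was named after its values were seen. It was at 1559.9 CPM in puberty, 312 in estrus and 351 in diestrus, and 25.5%, 12.2% and 10.98% of thinned LP cells had a count of it.

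Growth factor and transport lists were short. Over all measured genes 1.79% were higher and 0.751% lower, so 1 call or none in such a list is not a result about the list. Areg and Slc12a2, both called, reached the CPM floor only in puberty. Areg, the epidermal growth factor (EGF) receptor ligand that ML cells make in ductal growth, was at 21.05 CPM in puberty, 2.82 in estrus and 8.04 in diestrus in LP cells. It was far higher in ML cells, at 3281, 627 and 1964 CPM, and with the stricter LP rule its smaller ratio was 0.33. Of 4 measured genes of EGF ligands and receptors it was the 1 called, and Hbegf was at 249 CPM in puberty, 145 in estrus and 170.0 in diestrus. Among 12 measured genes of ductal growth signalling, Epha2, an ephrin receptor, was called at 72.5 CPM in puberty, 34.5 in estrus and 26.6 in diestrus, and its smaller ratio was 0.82 without TMM. Igfbp5, an IGF-binding protein, was at 1625 CPM in puberty, 1401 in estrus and 829 in diestrus. Of 4 measured Wnt and R-spondin genes none was called, and Wnt5b was at 133 CPM in puberty, 247 in estrus and 203 in diestrus. Of 11 measured genes of the proton pump and ion transport list, Slc12a2, a chloride cotransporter, was called at 20.6 CPM in puberty, 8.46 in estrus and 6.80 in diestrus and Atp1b1, a subunit of the sodium pump, at 146 CPM in puberty, 66.97 in estrus and 60.6 in diestrus. The smaller ratio of Slc12a2 was under 1 in 6 of the 12 alternatives that can change a ratio, and lowest after thinning (0.68), and that of Atp1b1 was 0.88 without TMM. Slc2a1, a glucose transporter, was the 1 of 17 measured genes of glycolysis and hypoxia that was called, at 145 CPM in puberty, 67.7 in estrus and 45.1 in diestrus, with a smaller ratio of 0.86 without TMM.

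**Figure D3:**
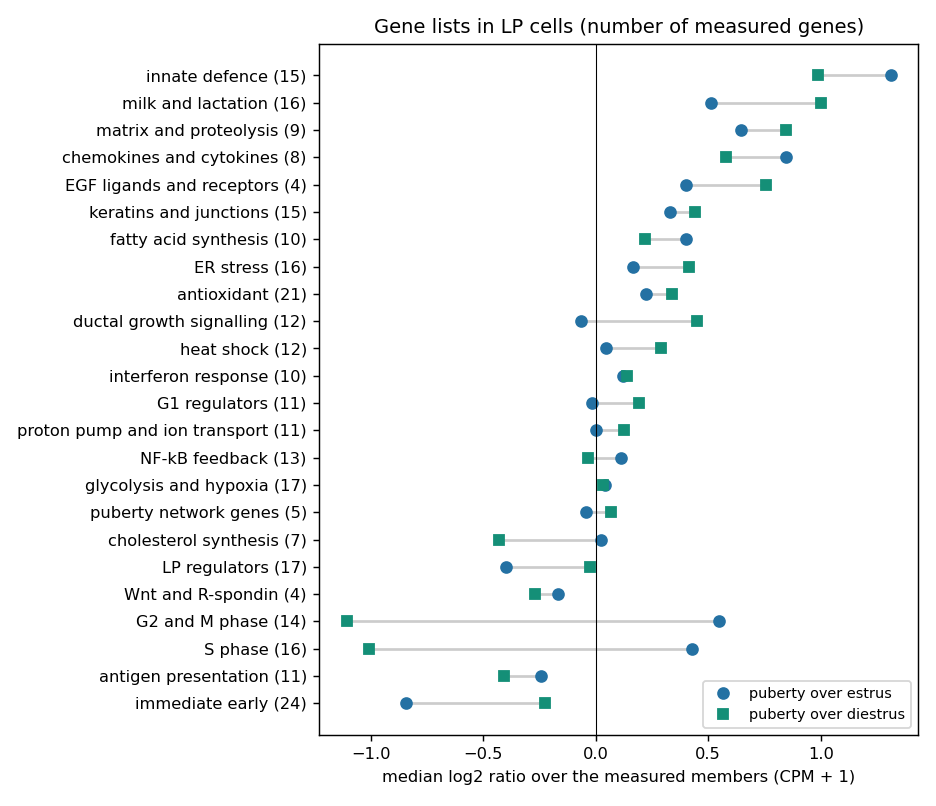
Median log2 ratio of each gene list in LP cells, for puberty over estrus (circles) and puberty over diestrus (squares), with the number of measured genes in brackets. Innate defence lies furthest to the right against estrus (1.31) and milk genes against diestrus (1.002), immediate early genes lie furthest to the left against estrus (-0.85), and the cell cycle lists lie on opposite sides of 0.

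Several lists held no gene past 2-fold against both libraries, which for lists of this size is near the share over all genes (1.79% higher and 0.751% lower). They included the regulators of LP cells, of which 17 were measured with a median of -0.40 against estrus and -0.02 against diestrus. Elf5 and Id2, which control luminal fate, were lower than in estrus and near diestrus, with ratios of -0.76 and -0.02 for Elf5 and -0.78 and -0.12 for Id2. Matrix and proteolysis genes had a median of 0.65 against estrus and 0.84 against diestrus over 9 genes without a call. Their most abundant member, Spp1 (osteopontin), was at 39866 CPM in puberty, 24221 in estrus and 20232 in diestrus. Antigen presentation genes had a median of -0.24 against estrus and -0.41 against diestrus over 11 genes, and B2m was at 768 CPM in puberty, 576 in estrus and 785 in diestrus. Heat shock genes (12 measured), genes of endoplasmic reticulum (ER) stress (16) and interferon response genes (10) had no member called, with medians of 0.05 against estrus and 0.29 against diestrus, 0.16 against estrus and 0.41 against diestrus and 0.12 against estrus and 0.14 against diestrus in that order. Hsp90ab1, a cytosolic chaperone, was at 1256, 1228 and 1473 CPM, Hspa5, a chaperone of the ER, at 887, 789.5 and 551 CPM and Ifi27 at 283, 267 and 202 CPM. The signalling genes that the study singled out for puberty on its other platform had 5 measured members with a median of -0.04 against estrus and 0.07 against diestrus. As the study chose them on the same stages, they are not independent evidence of a direction.

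Immediate early genes, which are transcribed within minutes of a stimulus, were the list with the lowest median against estrus. All 24 were measured, and 17 were below both adult libraries, beside 1717 of the 5196 measured genes. Past 2-fold against both was 1 gene, beside 0.751% over all measured genes. The median was -0.85 against estrus and -0.22 against diestrus. Fosb, an AP-1 subunit, was at 271 CPM in puberty, 1093 in estrus and 547 in diestrus, just past 2-fold against diestrus, and its smaller ratio was above -1 in 5 of the 12 alternatives that can change a ratio. Fos was at 2839 CPM in puberty, 8077 in estrus and 4706 in diestrus, Junb at 3545 CPM in puberty, 8428 in estrus and 4582 in diestrus and Egr1, a zinc finger factor, at 404 CPM in puberty, 1112 in estrus and 704 in diestrus. Estrus was the highest library for each of these. Their shares of cells differed too. Fos had a count in 55.6%, 92.01% and 93.2% of thinned LP cells, and Egr1 in 30.6%, 76.4% and 65.2%. Basal cells of the same libraries gave 42.5%, 94.4% and 88.1% for Fos, and the list's medians were -1.38 and -0.76 in basal and -0.96 and -0.49 in ML cells, so the medians were negative in every lineage. Fosl1, another AP-1 subunit, was at 164 CPM in puberty, 63.4 in estrus and 83.5 in diestrus.

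The 12 genes furthest below both adult libraries had low counts, with pubertal levels of 3.89 to 36.1 CPM. Dapk3, a death-associated protein kinase, was the furthest, at 8.47 CPM in puberty, 45.1 in estrus and 43.3 in diestrus (37, 64 and 70 counts). Anxa11, an annexin, was at 3.89 CPM in puberty, 26.8 in estrus and 17.3 in diestrus. Tppp3, a tubulin-binding protein, was at 11.7 CPM in puberty, 62.03 in estrus and 43.9 in diestrus, but its smaller ratio was 0.02 when cells were thinned before classification and -0.23 under the stricter LP rule. Oxtr, the oxytocin receptor of myoepithelial cells, was at 4.58 CPM in puberty, 21.1 in estrus and 18.5 in diestrus, a basal gene at a low level in LP cells, with basal levels of 66.3, 271 and 114 CPM. Spag7 was at 7.55 CPM in puberty, 29.6 in estrus and 24.7 in diestrus and F11r, a tight junction adhesion molecule, at 24.7 CPM in puberty, 76.1 in estrus and 70.5 in diestrus. Pdk4, the kinase that holds back pyruvate dehydrogenase, was at 7.09 CPM in puberty, 37.4 in estrus and 21.6 in diestrus, and G0s2, an inhibitor of lipolysis, at 36.1 CPM in puberty, 90.9 in estrus and 108 in diestrus. Under the stricter LP rule their smaller ratios were -0.85 and -0.43. Ackr3, a scavenging chemokine receptor, was at 12.6 CPM in puberty, 57.1 in estrus and 35.2 in diestrus, and Slc31a2, a copper transporter, at 10.8 CPM in puberty, 29.6 in estrus and 36.5 in diestrus. Rpp40 and Dusp18 made up the 12, at 7.55, 21.1 and 26.6 CPM and 6.63, 21.9 and 18.5 CPM, and the smaller ratio was 0.17 for Dusp18 and -0.91 for Spag7 after thinning.

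Other genes were left out of the naming because their counts can be shared with copies. Of the higher genes, 5 were ribosomal protein genes, pseudogenes or unnamed models and 2 had a 3′ end shared with other genes. Hist1h2ap, of a histone family whose members share 93.1% of its last 500 transcript bases, was at 60.4 CPM in puberty, 2.82 in estrus and 2.47 in diestrus. Rpl35 and Gm10076 were at 3296, 811 and 1078 CPM and 644, 116 and 102 CPM, with ratios of 2.02 and 1.49 and 2.64 and 2.66 in basal cells, so the basal ratios had the same direction. Of the lower genes, 4 were unnamed models, 1 (Tmed7) had a shared 3′ end and 1 (Acta2) was a gene of the cell rule.

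The same contrast was then computed in basal and ML cells, chosen as cells with at least 3 markers of their own lineage and few of the others, to ask which differences were found beyond LP cells. In basal cells 106 of 5665 genes were higher in puberty than in both adult libraries (1.87%) and 66 lower (1.17%). In ML cells 103 of 5338 were higher (1.93%) and 21 lower (0.393%). The lineages come from the same libraries, so these are not independent comparisons. Of the 93 genes higher in LP, 54 were measured in basal cells, with median ratios of 1.08 and 1.09, and 54 in ML cells, with 0.91 and 0.82. Of the 39 lower genes, 29 and 30 were measured, with medians of -1.04 and -0.87 in basal cells and -0.82 and -0.78 in ML cells.

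The named genes fell along a range. Mt1 was above both adult libraries in all 3 lineages, with ratios of 2.24 and 0.97 in basal and 2.87 and 0.996 in ML cells, and Klk10, Aqp3 and Csn2 likewise. Dapk3 was below both in all 3, with -2.36 and -2.29 in basal and -1.45 and -1.52 in ML cells, as were F11r and Spag7. Scd1 was under 2-fold in the other lineages, with 0.28 and 0.77 in basal and 0.08 and 0.76 in ML cells. Saa1 gave -0.42 and 0.23 in basal and 0.93 and 0.93 in ML cells, and S100a8 0.34 and 0.34 and -1.15 and 0.53. Wap gave 0.00 and 0.00 and 0.38 and 0.38, at levels near 0 in both lineages. The difference between lineages was not tested, since each had 1 library per stage. Innate defence as a list had medians of -0.08 and 0.35 in basal cells over 5 measured genes and 1.62 and 0.53 in ML cells over 7.

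**Figure D4:**
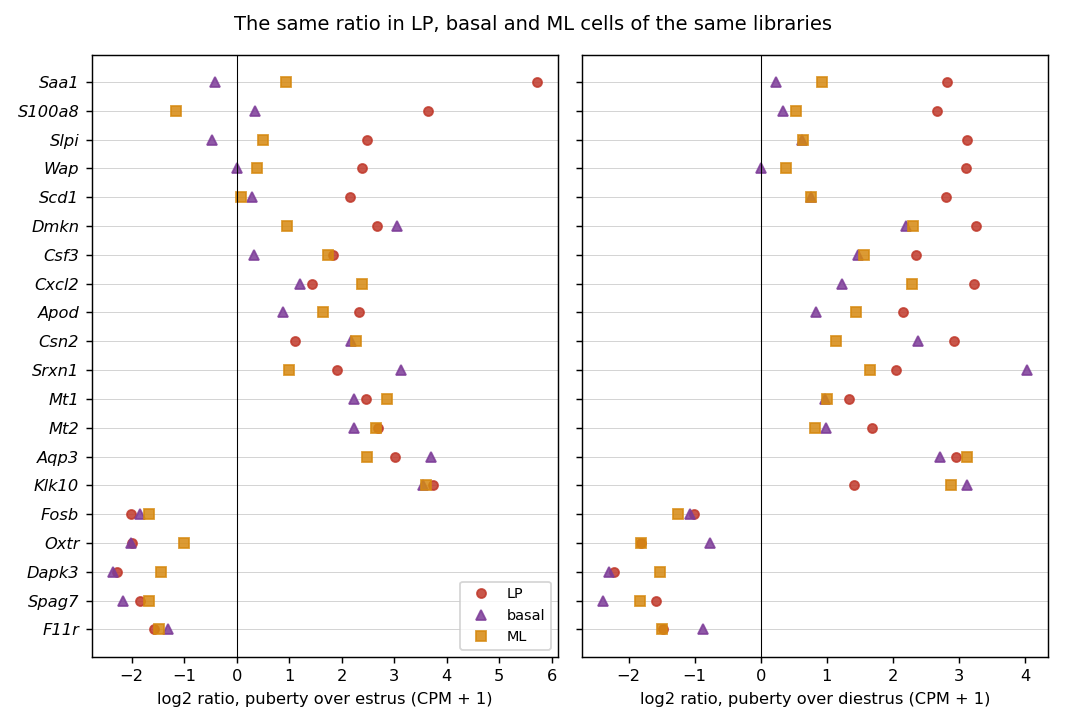
Log2 ratios of puberty over estrus (left) and over diestrus (right) for 20 genes in LP (circles), basal (triangles) and ML cells (squares) of the same libraries. Mt1, Mt2, Klk10 and Aqp3 lie right of 0 in all 3 lineages, whereas for Saa1, S100a8, Slpi, Wap and Scd1 the LP point lies furthest to the right.

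**Figure D5:**
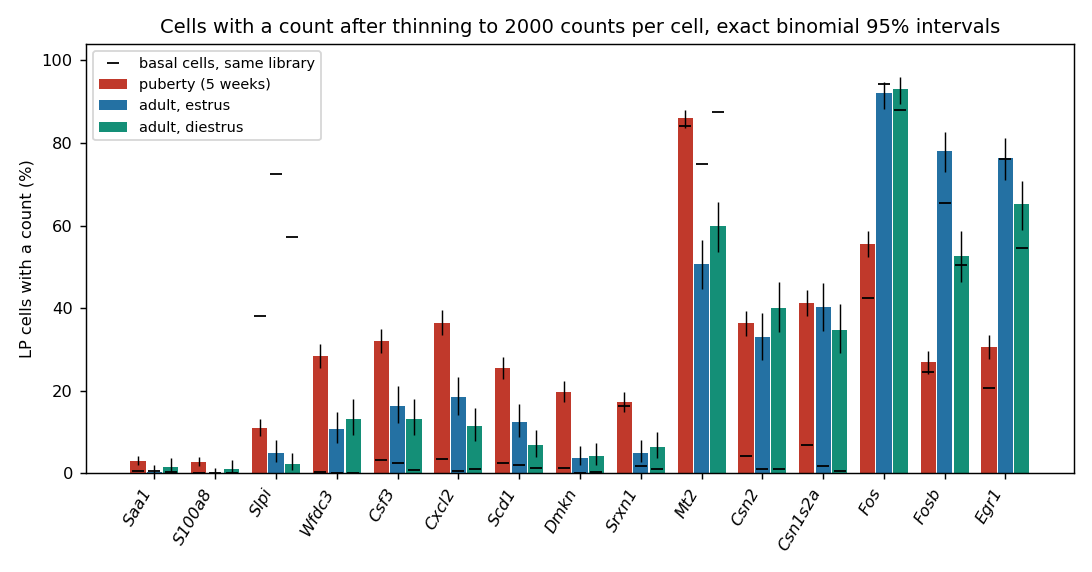
Percent of LP cells with a count of each gene after thinning every cell to 2000 counts, in puberty (990 cells), estrus (288) and diestrus (264). Bars carry exact binomial 95% intervals and black dashes give the share in basal cells of the same library. Csf3, Cxcl2, Scd1, Dmkn and Mt2 are in more cells in puberty, the intervals of Csn2 and Csn1s2a overlap between puberty and both adult libraries, and Fos, Fosb and Egr1 are in fewer.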

How the data were processed

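Single-cell RNA sequencing libraries of sorted mouse mammary epithelium were analysed from the deposited tables, whose deposited values are raw molecule counts per gene and barcode. The authors made these count tables with Cell Ranger 2.0 against mm10. Barcodes were used as deposited, and no doublet caller was run. No replicate library existed at any stage, so no test between stages was made. The limits on ML and basal markers removed only cells with more than 1 ML or more than 2 basal markers. Acta2, a basal marker of the rule, was still counted in 52 pubertal, 31 estrus and 42 diestrus LP cells. The LP cells numbered 1055, 323 and 283 in that order. The part of such cells in the lower pubertal levels of Acta2 and Oxtr was not tested. An alternative left out the LP cells with the most counts.

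LP, basal and ML counts were summed per library and scaled by TMM factors from edgeR 4.0.16 (R 4.3.3), which were 0.892, 1.05 and 1.07 for puberty, estrus and diestrus LP sums. The log2 ratio was taken after adding 1 CPM, for genes with at least 20 CPM in at least 1 of the 3 sums, and a gene was kept when its ratio was at least 1, or at most -1, against both adult libraries. Intervals are exact Poisson for sums and Clopper-Pearson for shares. The ratio step was run on simulated Poisson counts with known changes. The simulation gave both adult libraries the same profile and had no spread between cells. It therefore checks the calculation only and gives no error rate for these data. Cells of over 2000 counts were thinned to 2000 to compare shares, which left out 65, 35 and 19 LP cells of puberty, estrus and diestrus.

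The text names the 12 genes with the largest smaller ratio in each direction and, for each of 29 lists, up to 4 genes past 2-fold, or the 2 most abundant in puberty where fewer than 2 passed. Genes of the cell rule, mitochondrial, ribosomal and haemoglobin genes, unnamed models and genes with over 25% of their last 500 transcript bases shared were left out of this naming. The members and lists were chosen with earlier results of these data known. Gene positions are from GENCODE M21 on GRCm38, the build of mm10 (27722 of 27998 genes matched). The alternatives were the scaling (no TMM, DESeq2 1.42.0 size factors, means over cells), the pseudocount, the floor, the second puberty table, thinning, stricter cells or LP rules, and leaving out cycling cells or gene families. A rule without Lalba was added after the data were seen.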

Additional observations from a re-analysis of the deposited data

How the results depend on the processing

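Over the 12 alternatives that can change a ratio, 501 of 504 values of the 42 named genes past 2-fold kept their direction, and 458 stayed past 2-fold against both adult libraries. The changes of scaling factor and pseudocount tried here could not reverse a gene past 2-fold, so for them a kept direction is no check. A floor of 50 CPM left 24 of the 42. The exceptions in direction were Tppp3 (0.021) and Dusp18 (0.17) when cells were thinned to 2000 counts and then classified, and Saa2 (-0.52) under the strict LP rule. The counts of genes moved by more than 1.5 times from 93 higher and 39 lower in these settings. There were 50 higher and 115 lower without TMM, 61 and 133 with means over cells, 56 and 15 with a floor of 50 CPM, and 297 and 221 with no filter on low values. The lower genes alone moved to 22 with a pseudocount of 5 CPM, 64 with the second puberty table, 138 after thinning, 132 under the strict LP rule and 59 with mitochondrial, ribosomal protein and haemoglobin genes left out before scaling. Fewer cells remained after thinning (702, 225 and 154 LP cells) and under the strict rule (333, 107 and 85). Of the 93 higher genes, 76 were kept with the second puberty table, 72 after thinning and 71 under the strict rule, and of the 39 lower genes 33, 18 and 26. The smaller list medians of antioxidant, fatty acid, EGF, heat shock, ER stress, interferon, ion transport and glycolysis genes turned negative without TMM. For NF-kB feedback and cholesterol genes, whose medians against estrus and diestrus differed in sign, the median against estrus turned negative. The depth of 1352551 and 1513819 counts in the adult LP sums sets a floor of 2.11 and 1.85 CPM for 3 counts. No paired analysis was possible because each stage had 1 library, and for the same reason no library could be left out. With 1 library per stage, differences between animals are not covered by any interval given here.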

Other observations

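The S phase list (16 genes measured) had medians of 0.43 against estrus and -1.01 against diestrus, and the G2 and M phase list (14 genes) 0.55 against estrus and -1.11 against diestrus, with no gene past 2-fold against both. The medians against estrus depended on the cells taken. Without the 10% of LP cells with the most counts they were 1.44 for S phase and 2.71 for G2 and M phase, and under the stricter LP rule -0.23 and -0.89. The Ube2c ratio against estrus was 3.98 and -1.80 in the same settings. Ube2c, a mitotic ubiquitin-conjugating enzyme, was at 89.00 CPM in puberty, 47.2 in estrus and 138 in diestrus, and Hmgb2, a chromatin protein of dividing cells, at 279.8 CPM in puberty, 236 in estrus and 547 in diestrus. A count of at least 3 of 10 cell cycle genes was found in 71 of 1055 pubertal LP cells (6.73%, exact binomial interval 5.29 to 8.41%), in 14 of 323 in estrus (4.33%, 2.39 to 7.17%) and in 44 of 283 in diestrus (15.5%, 11.5 to 20.3%).

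At a depth of 2000 counts per cell, pubertal LP cells had a median of 775 genes, against 910 in estrus and 944 in diestrus. Basal cells had 903, 1009 and 1007, and ML cells 896, 1022 and 972. The 10 genes with the most counts held 15.5% of the LP counts in puberty, 12.8% in estrus and 9.18% in diestrus. Ribosomal protein genes (84 measured) had a median of 0.78 against estrus and 0.10 against diestrus in LP cells, 0.72 and -0.02 in basal and 0.89 and -0.02 in ML cells in the same order, so estrus was the library that stood apart for them. The part of these differences in the ratios of single genes was not tested.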
